A study of Mus musculus with 4 samples.

Results

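The 10 genes described here encode SR splicing factors, proteins with RNA-recognition domains and a tail rich in arginine and serine. They are Srsf1, Srsf2, Srsf3, Srsf4, Srsf5, Srsf6, Srsf7, Srsf9, Srsf10 and Srsf11, taken by gene symbol from tables of 22011 genes. Where a gene had several transcript rows, the row with most reads over all libraries stood for it, and the members have 22 of the 28283 rows. Their splice junctions, found by the gene symbol in the junction tables, number 257 of 1921627, of which 66 are marked known and 191 putative. The study sequenced RNA of fetal liver cells from hnRNP L -/- mice (KO, n = 2) and from wild type mice (WT, n = 2). HnRNP L is an RNA-binding protein that regulates splicing. The sources used here give no allele or Cre driver for these samples, no strain for the sequenced embryos, no embryonic day and no litter. Beyond separate samples of each genotype they do not say what separates the replicates, and each p-value therefore reflects only how these samples vary, which may be partly technical.

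SR proteins bind exon sequences and recruit the spliceosome to the adjoining splice sites, and several also act in mRNA export, stability and translation. Many SR genes regulate their own output through poison exons, alternative exons with an in-frame stop codon whose inclusion sends the mRNA to nonsense-mediated decay. HnRNP proteins such as hnRNP L often act at the same exons, in part as repressors.

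Reads on gene rows numbered 47700336 and 48162919 in KO libraries and 33738843 and 56895360 in WT libraries. Known junction reads numbered 7150406 and 6941562 in KO libraries and 4875332 and 8624429 in WT libraries. The targeted gene, Hnrnpl, had 279 and 269 CPM (reads per 1000000 reads on gene rows, after TMM scaling) in KO livers and 459 and 603 in WT livers, a log2 fold change of -0.95 ± 0.16 (SE, n = 2 each; edgeR adjusted p = 0.0114), so its RNA was still present in KO livers. Marker lists of cells that fetal liver holds, and of heart muscle, which is not a part of the liver, differed between the genotypes. Summed erythroid markers were at 25350 and 19970 CPM in KO livers and 40590 and 37780 in WT livers (0 of 10 higher, 7 lower), and proliferation markers at 6735 and 5765 in KO and 9250 and 9833 in WT (0 of 11 higher, 6 lower). Hepatocyte markers were at 82540 and 73410 in KO and 51830 and 39030 in WT (5 of 10 higher, 0 lower), granulocyte markers at 1281 and 1036 in KO and 702 and 604 in WT (4 of 8 higher) and megakaryocyte markers at 1172 and 1030 in KO and 588 and 648 in WT (6 of 8 higher). Heart muscle markers, at 4.68 and 8.20 in KO and 59.8 and 307.5 in WT, were lower in KO for 10 of 10, and no marker was at 0. The source of the heart muscle RNA was not tested, nor was the part of any of these lists in the differences below. In bulk RNA, fewer cells of a type and less RNA per cell cannot be told apart.

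Several of the results turn on exons that end a reading frame, and their sequences show where. The stretches below run from the first base of each alternative exon to the stop codon that the upstream reading frame meets there, with the stop codon in capitals. They are taken from GENCODE release M21 transcripts (GRCm38), matched to the deposited junctions by the lengths of the exon and of both flanking introns.
Srsf3 poison exon, chr17:29039454-29039487, plus strand: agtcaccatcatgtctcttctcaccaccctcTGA
Srsf7 poison exon, chr17:80205054-80205081, minus strand: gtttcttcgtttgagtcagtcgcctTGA
Srsf9 poison exon, chr5:115331450-115331460, plus strand: aaaactatTAG
The 456-nt exon of Srsf3 reaches its stop at base 32, the 460-nt exon of Srsf7 at base 26 and the 90-nt exon of Srsf9 at base 9. Reads that skip or include such an exon are told apart by the bases that follow the same upstream exon, which for Srsf3 and Srsf7 are shown here with the last 15 bases of the upstream exon in capitals.
Srsf3 skipping: TCCACCTCGGCGCAGatccccaagaaggag
Srsf3 inclusion: TCCACCTCGGCGCAGagtcaccatcatgtc
Srsf7 skipping: ACGAAGAAGAAGCAGgtcacgatctagatc
Srsf7 inclusion: ACGAAGAAGAAGCAGgtttcttcgtttgag

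Srsf10 was the member called lower in KO livers by the edgeR test of gene rows. It encodes an SR-like protein, also called SRp38, that acts as a splicing repressor when dephosphorylated and as an activator when phosphorylated. Its row, which ends in the distal last exon described below, had 43.3 and 36.7 CPM in KO livers, against 64.2 and 64.1 in WT livers. Both KO libraries lay well below both WT libraries, and the WT libraries were almost equal. KO livers had 0.624 of the WT level of that row, a log2 fold change of -0.68 ± 0.12 (SE, n = 2 each, edgeR quasi-likelihood test, adjusted p = 0.0128 over 15028 genes). The call was lost without KO replicate 2 (log2 fold change -0.57, edgeR adjusted p = 0.0509). It was also lost when known junction reads were counted in place of reads on the row (-0.41, edgeR adjusted p = 0.111).

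All 10 members passed the filter on low counts. Of these, 1 was lower and 0 were higher at an adjusted p under 0.05, beside 9.44% lower and 11.4% higher among all genes tested (20.8% in either direction). The share of members called was thus near or below that of all genes. Their direction was less even: 8 of 10 fold changes were negative, with a median log2 fold change of -0.28, where all genes had a median of 0.02. Both KO libraries lay below both WT libraries for 7 of 10 members, against 31.7% of all genes, and above them for 0 of 10, against 33.5%. An unadjusted p under 0.05 was reached by 4 of 10 members and by 37.4% of all genes. With DESeq2's Wald test 4 members passed, all lower (Srsf1, Srsf2, Srsf3 and Srsf10), where 11.7% of all genes were called lower. The order of the libraries differed in part by known junction reads (per 1000000). Srsf5 was then above WT without overlap (87.8 and 84.6 in KO, 74.0 and 76.4 in WT). Srsf6 and Srsf7 overlapped, as did Srsf4 and Srsf11, and Srsf1, Srsf2, Srsf3, Srsf9 and Srsf10 stayed below WT. Orders by this measure were not taken over all genes.

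**Figure D1:**
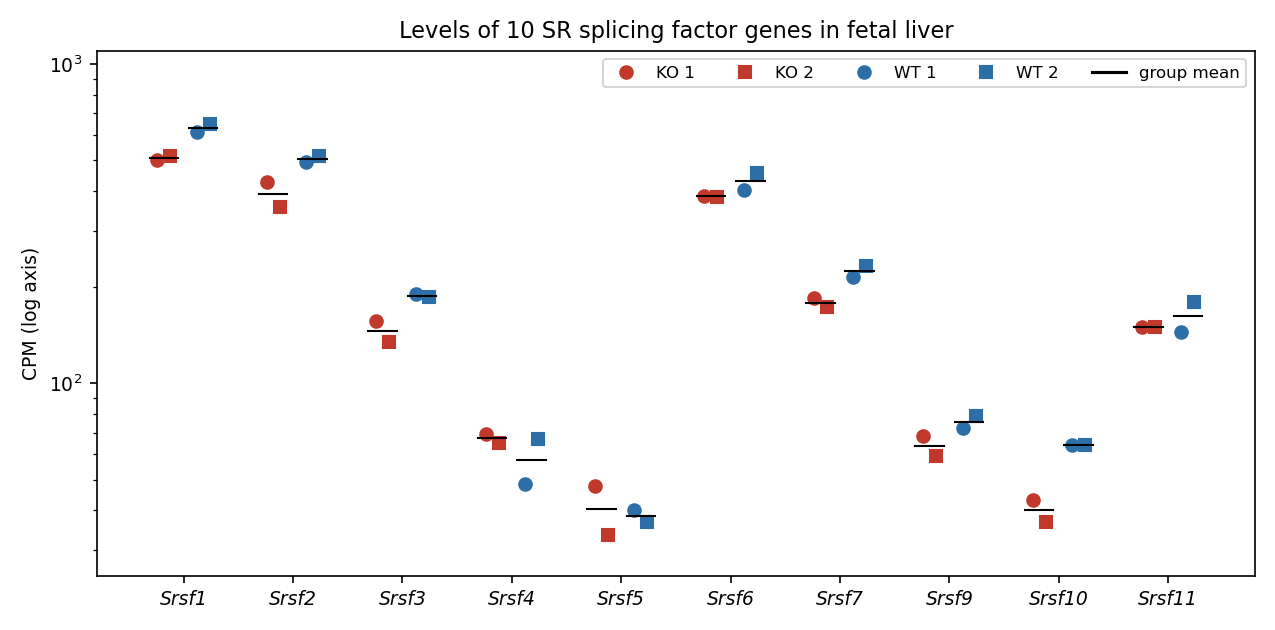
CPM (log axis) of the 10 SR factor genes in each library, with KO libraries in red left of WT libraries in blue and black bars for the group means. Both KO points lie below both WT points for Srsf1, Srsf2, Srsf3, Srsf6, Srsf7, Srsf9 and Srsf10, and the widest gap relative to the level is that of Srsf10 (36.7 to 43.3 in KO and 64.1 to 64.2 in WT).

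Srsf3 and Srsf7 encode small SR proteins that bind mRNA export factor NXF1 as well as exons, and both are known for poison exons. Srsf3 had 157 and 134 CPM in KO livers, against 190 and 187 in WT livers. The groups did not overlap, but the log2 fold change of -0.37 ± 0.12 (SE) missed the threshold (edgeR adjusted p = 0.0673). The rows that stood for Srsf3 and Srsf7 are those that contain the poison exon. The Srsf3 row without that exon, described below, passed in the fit of single rows (-0.46, edgeR adjusted p = 0.0404). Srsf7 had 185 and 173 CPM in KO livers, against 215 and 233 in WT livers. These groups did not overlap either, and the log2 fold change of -0.33 ± 0.12 (SE) did not pass (edgeR adjusted p = 0.0854).

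Srsf1, formerly SF2/ASF, and Srsf2, formerly SC35, are the founding SR proteins, with roles in constitutive and alternative splicing. Srsf1 had 500.5 and 515 CPM in KO livers, against 613 and 649 in WT livers. Srsf2 had 428 and 358 CPM in KO livers, against 493 and 516 in WT livers. For both genes each KO library was below each WT library, yet neither passed (Srsf1 log2 fold change -0.31 ± 0.13, edgeR adjusted p = 0.134; Srsf2 -0.36 ± 0.14, edgeR adjusted p = 0.114). Counted by known junction reads both passed, Srsf1 at -0.53 (edgeR adjusted p = 0.0438) and Srsf2 at -0.59 (edgeR adjusted p = 0.0244). Of the 11265 genes testable in that way, 4.38% were lower. These sums rest on few junctions. For Srsf2, 2738 of 2800 reads were on its most used junction. For Srsf1, 1544 of 2824 were on the junction over the 196-nt intron that separates its rows.

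Srsf9 and Srsf6, further classical SR proteins, were below WT without overlap by smaller margins, counted on their rows. The row that stood for Srsf9 contains its poison exon. Srsf9 had 68.5 and 59.1 CPM in KO livers, against 72.4 and 78.8 in WT livers (log2 fold change -0.25 ± 0.12 SE; edgeR adjusted p = 0.176). Srsf6 had 387 and 384 CPM in KO livers, against 402 and 457 in WT livers (-0.16 ± 0.13 SE; edgeR adjusted p = 0.433). For Srsf6 most of the distance came from WT replicate 2, since WT replicate 1 was within 20 CPM of both KO libraries.

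Srsf11, Srsf4 and Srsf5 overlapped between genotypes by reads on their rows. Srsf11, an SR-like protein found with the spliceosome, had 149.8 and 150.2 CPM in KO livers, against 145 and 179.5 in WT livers. Srsf4, an SR protein with a long arginine- and serine-rich tail, had 69.5 and 65.0 in KO livers, against 48.4 and 67.1 in WT livers. Srsf5, a further SR protein, had 47.6 and 33.5 in KO livers, against 40.3 and 36.8 in WT livers. For Srsf4 WT replicate 1 stood low, and for Srsf5 the KO libraries lay on either side of both WT libraries. Their log2 fold changes were -0.11 ± 0.13 for Srsf11, 0.22 ± 0.16 for Srsf4 and 0.07 ± 0.17 for Srsf5 (SE, n = 2 each; edgeR adjusted p of 0.565, 0.359 and 0.787).

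**Figure D2:**
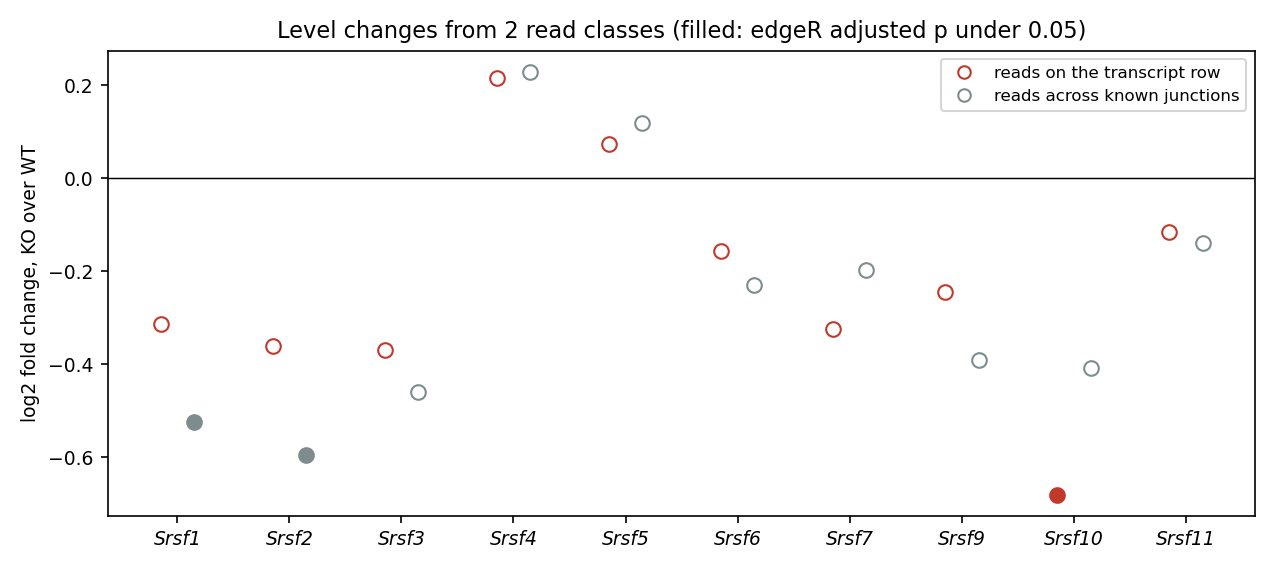
Log2 fold change, KO over WT, of each SR factor gene from reads on its transcript row (red) and from reads across its known junctions (grey), with filled circles for an edgeR adjusted p under 0.05. The sign is the same by both measures for each of the 10 genes, while the genes called differ: Srsf10 by row reads (-0.68), and Srsf1 (-0.53) and Srsf2 (-0.59) by junction reads.

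Levels can be compared between genes only per length, for which the authors' RPKM values serve. Of the rows that stood for the genes, that of Srsf2 was highest, at 105 ± 7.36 RPKM in KO livers and 127 ± 11.2 in WT livers (SD, n = 2 each). That of Srsf10 was lowest, at 6.00 ± 0.354 RPKM in KO livers and 9.06 ± 0.495 in WT livers. The ratio between these rows was 17.5 in KO livers and 14.1 in WT livers. The Srsf10 row holds only the distal ending described below, so its rank is not that of the whole gene. The rows of Srsf3, Srsf7 and Srsf9 contain their poison exons, so their ranks too are those of the rows. By known junction reads Srsf10, with 2655, stood above Srsf4 (1086), Srsf9 (1223) and Srsf5 (2235) and below the other members. Those sums make no allowance for the number of junctions in a gene. In KO livers the order from high to low was Srsf2, Srsf6, Srsf1, Srsf7, Srsf9, Srsf11, Srsf3, Srsf4, Srsf5 and Srsf10. Neighbours overlapped in their libraries for Srsf6 with Srsf1, for Srsf9 with Srsf11 and for Srsf11 with Srsf3, which is 3 of 9 pairs. In WT livers the order was Srsf2, Srsf1, Srsf6, Srsf7, Srsf3, Srsf9, Srsf11, Srsf4, Srsf5 and Srsf10, and 4 of 9 neighbouring pairs overlapped. Compared within libraries, the full order of Srsf3, Srsf9 and Srsf11 differed between the replicates of each genotype, but parts of it did not. Srsf9 was above Srsf3 in both KO libraries (26.9 against 25.4 and 25.2 against 23.6 RPKM). Srsf11 was the lowest of these genes in both WT libraries (21.7 and 29.0 RPKM). Likewise, Srsf6 was above Srsf1 in both KO libraries (53.6 against 48.5 and 57.7 against 54.2 RPKM).

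The last exon of Srsf10 is alternative. From the same 5′ splice site, at chr4:135419491 in the coordinates of the deposited files (the sources used here name no build), transcripts join either a proximal last exon 152 nt downstream or a distal one 3549 nt downstream, and the proteins end differently. Their coding parts, from GENCODE release M21 (GRCm38, plus strand), are given up to the stop codon in capitals.
Srsf10 proximal last exon, chr4:135863729-135864026: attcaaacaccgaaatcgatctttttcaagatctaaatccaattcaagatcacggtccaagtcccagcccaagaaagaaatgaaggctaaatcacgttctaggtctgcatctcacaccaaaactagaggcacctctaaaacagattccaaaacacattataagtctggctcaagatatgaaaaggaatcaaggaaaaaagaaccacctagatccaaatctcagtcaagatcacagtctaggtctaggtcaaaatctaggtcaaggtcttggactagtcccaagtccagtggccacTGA
Srsf10 distal last exon, chr4:135867126-135867186: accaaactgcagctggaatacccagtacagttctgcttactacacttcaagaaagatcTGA
The proximal exon adds 298 bases of open reading frame with its stop codon, and the distal exon adds 61. The longer coding part continues the serine- and arginine-rich tail, and the shorter one gives a protein with a truncated tail.

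Reads from that splice site to the distal last exon numbered 49 and 44 in KO libraries and 65 and 108 in WT libraries. Reads to the proximal last exon numbered 130 and 159 in KO libraries and 103 and 165 in WT libraries. The distal share was therefore 27.4% (95% Wilson interval 21.4% to 34.3%) and 21.7% (16.6% to 27.8%) in KO livers, against 38.7% (31.7% to 46.2%) and 39.6% (33.9% to 45.5%) in WT livers. Both KO shares lay below both WT shares, and the group means differed by -14.6 percentage points (24.5% ± 4.03 in KO and 39.1% ± 0.615 in WT; SD, n = 2 each). Wilson intervals cover counting error only, and the reads carried no molecular identifiers.

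The ratio of proximal to distal reads was tested among 5396 pairs of junctions that share a splice site. It was higher in KO by 0.98 ± 0.37 on the log2 scale (SE, limma with weights, unadjusted p = 0.0157), but its adjusted p was 0.756. A normal approximation gave a 95% interval of 0.26 to 1.70, which is narrower than that of the limma test. With all 4 libraries 0 of 5396 pairs (0%) passed. Without KO replicate 1, 10 pairs passed, without KO replicate 2, 16, and without either WT replicate, 0, with 0 pairs of members among them in each case and an adjusted p of 0.564 to 0.999 for the Srsf10 pair. Without adjustment, 330 pairs (6.12%) had a p under 0.05, and of the 16 pairs of members this was the one. The fit of pairs was added after the junction tables had been seen. An exact permutation test of 2 against 2 libraries cannot go below p = 0.333. The choice of last exon is thus a difference between the libraries that did not survive adjustment.

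The same contrast appeared in the transcript rows, which are counted apart for each ending and share the upstream exons. They come from the same libraries as the junction reads, so the rows are independent neither of each other nor of the junction result. The fit of single rows was added after the data had been seen. The row with the distal last exon, 3400 nt long, had 33.9 and 28.6 CPM over all rows in KO livers, against 50.2 and 50.1 in WT livers (log2 fold change -0.68 ± 0.12 SE; edgeR adjusted p = 0.0114 over 19868 rows). The row with the proximal last exon, 2716 nt long, had 26.0 and 25.5 in KO livers, against 28.0 and 32.6 in WT livers (-0.24 ± 0.12 SE; edgeR adjusted p = 0.202). The KO libraries were below the WT libraries in both rows, and by more in the distal one. Reads of the distal row over those of the proximal row stood at 1.30 and 1.12 in KO livers and at 1.79 and 1.54 in WT livers, without overlap. The gene-level call of Srsf10 is a call on the distal row, which had more reads and so stood for the gene.

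**Figure D3:**
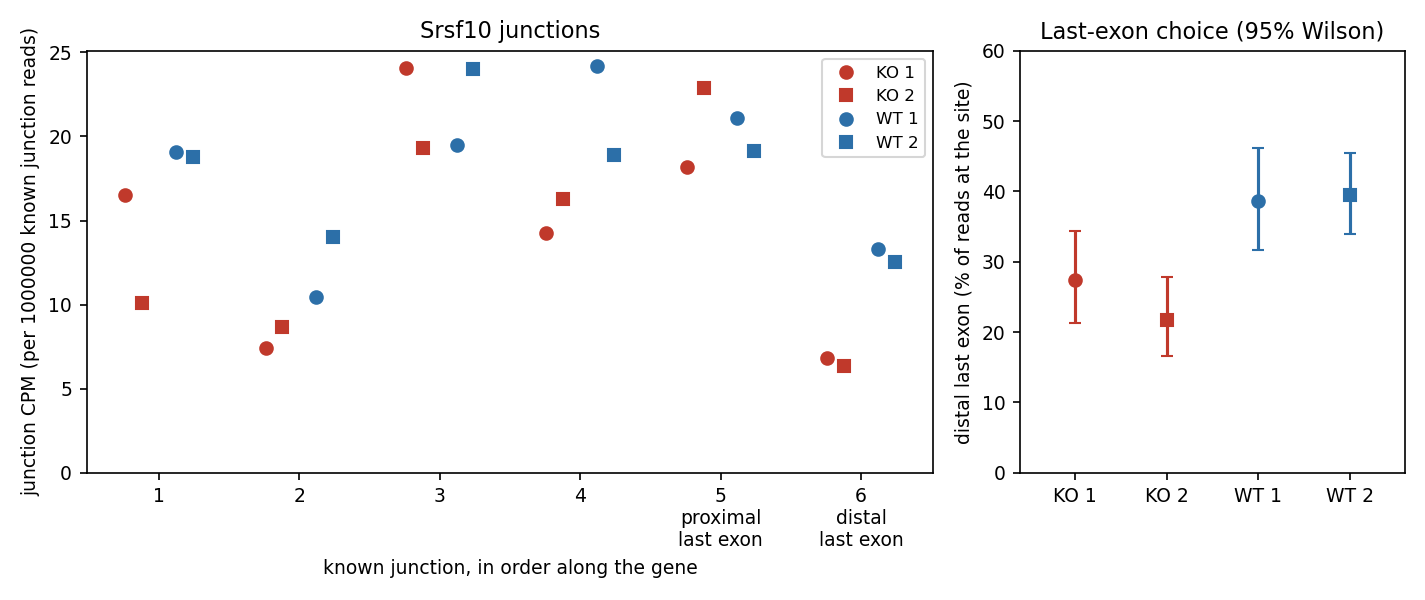
Left, junction CPM (reads per 1000000 known junction reads) for the 6 known junctions of Srsf10 in order along the gene, KO libraries in red left of WT libraries in blue. Right, reads to the distal last exon as a percentage of reads from the shared 5′ splice site, with 95% Wilson intervals: 27.4% and 21.7% in KO and 38.7% and 39.6% in WT.

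The distal junction was at 6.85 and 6.34 junction CPM in KO livers and 13.3 and 12.5 in WT livers, while the proximal junction was at 18.2 and 22.9 in KO livers and 21.1 and 19.1 in WT livers. The distal junction was thus lower in both KO libraries than in both WT libraries, and the proximal junction overlapped. These values also carry the level of the gene and were not tested in this form. Relative to the other junctions of the gene, use of the distal junction differed by -0.63 ± 0.39 on the log2 scale (SE; edgeR diffSpliceDGE, unadjusted p = 0.111) and use of the proximal junction by 0.35 ± 0.34 (unadjusted p = 0.303), both with an adjusted p of 1.00.

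Poison exon inclusion was read from junctions for Srsf3 and Srsf7. It was measured as the mean of both inclusion junctions over that mean plus the skipping junction. The Srsf3 exon, on chromosome 17 at 29176399 to 29176854 in the deposited coordinates, was included at 12.1% and 7.87% in KO livers, against 12.2% and 5.0% in WT livers. The genotypes overlapped, and replicates of a genotype differed more than the group means did (9.99% ± 2.99 in KO and 8.62% ± 5.12 in WT; SD, n = 2 each). Entry into the exon rested on 22 and 10 reads in KO and 22 and 10 in WT, and skipping on 138 and 158 reads in KO and 147 and 285 in WT. The log2 ratio of inclusion to skipping differed by 0.34 ± 1.08 (SE; limma, adjusted p = 0.988), and by 0.54 ± 0.59 (SE; limma adjusted p = 0.949) with weights by read number, a fit chosen after seeing the data.

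The Srsf7 poison exon, on chromosome 17 at 80603962 to 80604421, was included at 5.10% and 1.87% in KO livers, against 1.95% and 3.11% in WT livers. By this mean of both inclusion junctions KO replicate 1 was highest and KO replicate 2 lowest. Entry junction reads numbered 5 and 2 in KO and 5 and 10 in WT, exit junction reads 8 and 3 in KO and 0 and 4 in WT, and skipping reads 121 and 131 in KO and 126 and 218 in WT. The log2 ratio of inclusion to skipping differed by 0.35 ± 1.09 (SE; limma adjusted p = 0.988) and, with weights, by 0.32 ± 1.06 (limma adjusted p = 0.979). The inclusion junctions did not go the same way. Exit reads were 6.20% and 2.24% of the reads at their 3′ splice site in KO livers and 0% and 1.80% in WT livers, higher in KO without overlap, and entry reads were 3.97% and 1.49% of those at their 5′ splice site in KO livers and 3.82% and 4.37% in WT livers, with overlap. The exit pair did not pass (log2 difference 2.05 ± 1.27 SE; limma with weights, adjusted p = 0.838), and with the lower of both inclusion junctions the log2 ratio differed by 1.70 (limma adjusted p = 0.940). For Srsf9 the junction into the 90-nt exon had 0 reads in every library, and the junction out of it had 4 and 7 reads in KO and 8 and 7 in WT, beside 96 and 112 skipping reads in KO and 118 and 137 in WT. It therefore fell below the minimum for a test.

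Both other cassette exons overlapped between genotypes too. A 36-nt exon of Srsf7 was included at 85.7% and 80.0% in KO livers and at 81.8% and 86.4% in WT livers. A 90-nt exon of Srsf11, which is skipped through the putative junction with most reads among the members (3 and 2 reads in KO, 2 and 3 in WT), was included at 97.1% and 98.3% in KO livers and at 97.8% and 98.2% in WT livers. The limma test without weights called 0 of the 4 cassette exons of members and 0 of 3145 in all (0%). On simulated pairs of junctions that share a splice site, that test recovered no change, and cassette exons were not simulated. Its count of 0 therefore does not bear on whether inclusion changed. With weights by read number 10 passed in all (0.318%) and 0 of the members. Without adjustment, 0 of the 4 exons of members and 170 of the 3145 (5.41%) had a p under 0.05 by limma, and 0 of 4 and 187 (5.95%) with weights.

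**Figure D4:**
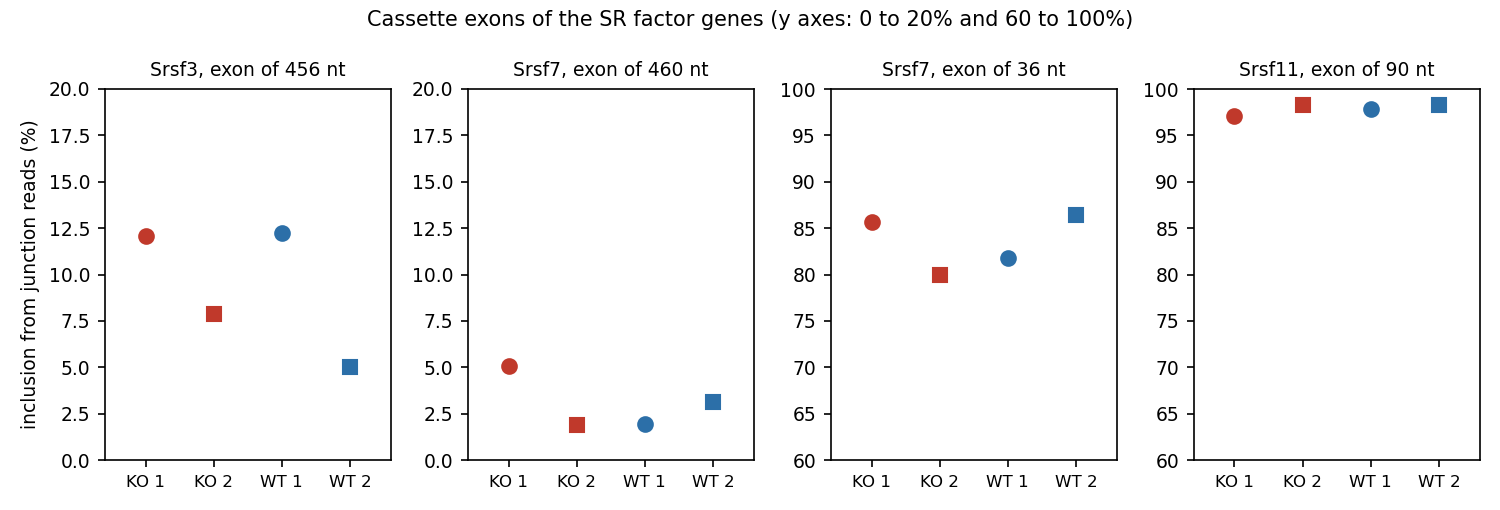
Inclusion, in percent, of the 4 cassette exons of SR factor genes that passed the read minimum, with KO libraries in red left of WT libraries in blue and y axes of 0 to 20% for the poison exons and 60 to 100% for the others. The genotypes overlap in each panel, as for the 456-nt exon of Srsf3 (7.87% to 12.1% in KO and 5.0% to 12.2% in WT).

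Body reads gave a further view of the poison exons, from a row that contains the exon minus the matching row without it. In Srsf3 this difference was 1938 and 1814 reads over 456 nt in KO livers and 1691 and 1613 in WT livers. Per nucleotide it was 1.97 and 2.02 times the density of the row without the exon in KO livers, and 2.16 and 1.04 times in WT livers. WT replicate 2 was the lowest, as it was by junction reads, and the other libraries were alike. By this measure the exon was as densely covered as the rest of the mRNA or more so, while its inclusion by junction reads was 5.0% to 12.2%, so body reads and junction reads gave different levels of the exon.

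In Srsf7 the same difference was 931 and 760 reads over 460 nt in KO livers and 684 and 1015 in WT livers, a density of 0.582 and 0.465 times that of the mRNA row in KO and 0.541 and 0.421 times in WT. In Srsf9 it was 30 and 22 reads over 90 nt in KO livers and 9 and 24 in WT livers, or 0.119 and 0.0944 times the mRNA row in KO and 0.0498 and 0.0711 times in WT. The Srsf7 values overlapped and the Srsf9 values did not. Retention of a 196-nt intron of Srsf1, which separates its 2 rows, gave differences of -24 and -112 reads in KO and -73 and -177 in WT, so the longer row held fewer reads than the shorter. A negative difference cannot be a count of reads, and its size in Srsf1 exceeded the Srsf9 difference in each library but KO replicate 1, so the Srsf9 values cannot be told from the error of the subtraction. The Srsf3 and Srsf7 differences were larger than these but carry the same kind of error, of unknown size.

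The Srsf3 rows parted at the threshold. The row without the poison exon, which codes for the full protein, had 91.2 and 77.1 CPM over all rows in KO livers, against 107.8 and 123 in WT livers. Both KO libraries were lower, and this row passed (log2 fold change -0.46 ± 0.13 SE; edgeR adjusted p = 0.0404), whereas the row with the exon did not (-0.37 ± 0.12 SE; edgeR adjusted p = 0.0637). The rows share most of their reads, and the difference between them was not tested. Together with the distal row of Srsf10 this made 2 of 22 member rows called, against 21.5% of the 19868 rows tested.

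In the junction test, which compares each junction with the others of its gene, 0 of 66 member junctions (65 known and 1 putative) passed, and 0.00379% of the 105433 junctions in all. No member junction reached an unadjusted p under 0.05 (edgeR diffSpliceDGE), where 2.46% of all junctions did. The smallest unadjusted p was 0.0536, for the first junction of Srsf11, which had 29 and 18 reads in KO livers and 6 and 14 in WT livers. Over the 66 junctions the median log2 change in usage was 0.00 and the range -0.98 to 1.63, and both ends of it were junctions of the Srsf7 poison exon with 22 and 15 reads over the 4 libraries.

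**Figure D5:**
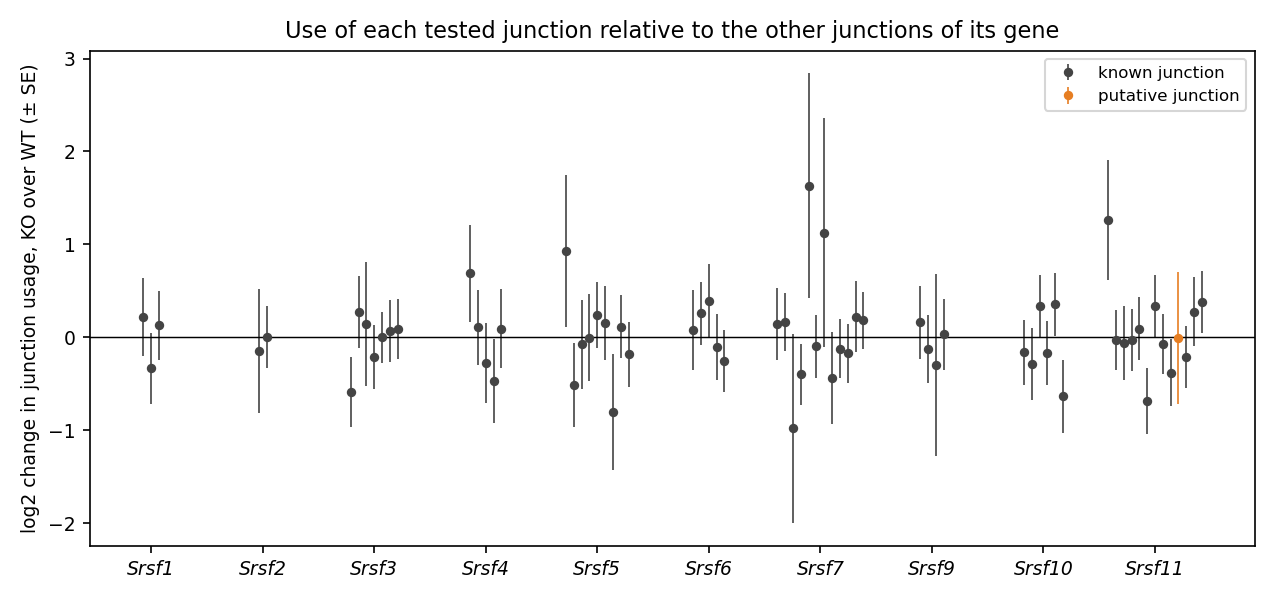
Log2 change in usage, KO over WT, of each of the 66 tested junctions of SR factor genes, in order along each gene, with bars of 1 SE, known junctions in grey and the putative junction in orange. Points lie between -0.98 and 1.63 and none passed the test; the widest bars belong to junctions with few reads.

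Alternative 5′ splice sites were also used in Srsf5 and Srsf7. In Srsf5, the known junctions into the exon at chr12:82047563 leave from 3 different 5′ splice sites. The site at 82046659 took 45.8% and 36.8% of these reads in KO livers and 54.5% and 52.6% in WT livers, on 49 and 25 reads in KO and 36 and 51 in WT. KO was below WT without overlap, and the group means differed by -12.3 percentage points. The site at 82046785 took 36.4% and 51.5% in KO livers and 39.4% and 39.2% in WT livers, with overlap. The site at 82046655 took 17.8% and 11.8% in KO livers and 6.06% and 8.25% in WT livers. Here KO was above WT without overlap, on 19 and 8 reads in KO and 4 and 8 in WT. The ratio of this site to that at 82046659 was higher in KO by 1.31 ± 0.85 on the log2 scale and did not pass (SE; limma with weights, adjusted p = 0.859). In Srsf7, 3 different 5′ splice sites join the 3′ splice site at chr17:80602084, and the most used took 88.5% and 87.4% of reads in KO livers and 86.5% and 86.3% in WT livers. These shares did not overlap, and the ratio to the next most used site did not pass (log2 difference 0.35 ± 0.47 SE; limma with weights, adjusted p = 0.956).

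Putative junctions added little to these genes. Of the 191, 11 had any read, 1 had at least 10 reads, and together they held 23 reads beside 33826 on known junctions. The putative junctions each had at most 3 reads in a library. Poison exons of other members that are described for mouse but are not spanned by the tabulated junctions are not analysed here.

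Genes that act with SR proteins were read from 3 lists. Of 26 further SR and SR-like genes tested, 1 was lower and 0 higher (median log2 fold change -0.17). The lower one was Tra2a, a regulator that binds purine-rich exon sequences, at 163 and 146 CPM in KO livers and 208 and 206 in WT livers (-0.42 ± 0.12 SE; edgeR adjusted p = 0.0397). Next by p, and short of the threshold, were Scaf4, which binds the tail of RNA polymerase II (0.41, edgeR adjusted p = 0.0551), and Luc7l3, a relative of a U1 snRNP protein (-0.40, edgeR adjusted p = 0.0598). Of 16 genes for phosphorylation, dephosphorylation and nuclear import of SR proteins, 3 were lower and 0 higher (median -0.16). Clk3, a nuclear kinase that phosphorylates SR proteins, had 159 and 125 CPM in KO livers and 242 and 227 in WT livers (-0.72 ± 0.14 SE; edgeR adjusted p = 0.0169).

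Also lower were Ppp1cb, a catalytic subunit of protein phosphatase 1 (-0.58, edgeR adjusted p = 0.0222), and Ppp1r8, a nuclear inhibitor of that phosphatase (-0.40, edgeR adjusted p = 0.0384). Of 16 genes for nonsense-mediated decay and the exon junction complex, 3 were lower and 1 higher (median -0.08). Eif4a3, the helicase that anchors the exon junction complex, had 70.6 and 65.7 CPM in KO livers and 102 and 93.6 in WT livers (-0.52 ± 0.11 SE; edgeR adjusted p = 0.0189). Pnrc2, a decapping adaptor (-0.44, edgeR adjusted p = 0.0275), and Smg5, which acts after UPF1 phosphorylation (-0.39, edgeR adjusted p = 0.0495), were lower too, and Nbas was higher (0.36, edgeR adjusted p = 0.0483). The share called was 1 of 26, 3 of 16 and 4 of 16, beside 20.8% of all genes.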

How the data were processed

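Total RNA was depleted of ribosomal RNA, cut with RNase III, size-selected at 150 to 300 bp and amplified for 12 PCR cycles, per the labels' protocols; 2 libraries were loaded on each of 2 slides, and the labels do not say which shared a slide. The authors deposited a raw count of reads per transcript, reads per nucleotide (a coverage signal) and RPKM values relative to mapped reads, counting primary alignments of mapping quality 10 or more, per the file headers. The deposited junction tables hold a raw count for every known or putative junction. No source used here names the aligner, genome build or strand setting, so overlapping genes can share reads. Member genes, gene lists and tests were chosen with earlier results of these data known.

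Counts were tested with edgeR 4.0.16 (R 4.3.3; TMM, filterByExpr, quasi-likelihood test), which was fitted to 15028 genes with 2 libraries a group, and CPM values come from that fit. Junctions with 10 or more reads in all went to edgeR diffSpliceDGE. Cassette exons (up to 1000 nt, at least 20 reads, and 5 on each junction) were tested with limma 3.58.1 on log2 ratios with a pseudocount of 0.5 reads. P-values were adjusted by Benjamini-Hochberg over all features tested, with a threshold of 0.05. On simulated pairs of junctions that share a splice site, the unweighted ratio test did not recover changed ratios, so weights by read number were added. The same weighted fit was used for such pairs in the data. DESeq2 1.42.0, other scalings and filters, and leaving out each library were alternatives. Named genes were Hnrnpl, the members, and in each list the 3 genes of smallest p with any others past the threshold. Sequences come from GENCODE release M21 (GRCm38), whose coordinates are not those of the deposited files. No protein sequences were used here. RPKM and coverage values entered no test.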

Additional observations from a re-analysis of the deposited data

How the results depend on the processing

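The number of members past the threshold was 1, and was 4 with DESeq2's Wald test, 2 without the filter on low counts, 2 with known junction reads per gene, and 0 to 1 when each library was left out (0 without KO replicate 2). File names give 1 KO and 1 WT library a shared number that the labels do not explain. As a replicate block it gave 2 members (Srsf3 and Srsf10), and deviations of the numbered pair correlated at 0.168 over genes, which the labels do not tie to a litter or day. The count over all genes, 3130, was 1195 with known junction reads and 1022 to 2492 without a library. Junctions called, 4 in all, were 2 with known junctions alone and 1 to 5 without a library. Cassette exons called, 0 in all, were 10 with weights, and 0 to 7 with weights and without a library. Junction pairs called, 0 of 5396, were 17 with the replicate block and 0 to 16 without a library, with 0 of members in each.

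Values that changed sign when a library was left out are given as ranges over the libraries left out. The Srsf11 level ran from -0.26 to 0.049 (positive without WT replicate 2) and the Srsf5 level from -0.21 to 0.31 (negative without KO replicate 1). Inclusion of the Srsf3 poison exon (log2 ratio) ran from -0.35 to 1.04 (negative without WT replicate 2, at -0.33 with weights). The 460-nt exon of Srsf7 ran from -0.32 to 1.01 and the 90-nt exon of Srsf11 from -0.55 to 0.12, both with the opposite sign without KO replicate 1 (with weights -0.38 and 0.078). The 36-nt exon of Srsf7 was at 0.16 without KO replicate 2 and 0.13 without WT replicate 2, and with weights at 0.097 and 0.15. None of these values passed a test. Where a library was left out, the lone sample is assumed to vary like the other group. With the lower of both inclusion junctions the 460-nt exon of Srsf7 was at 1.70 and the 36-nt exon at -0.35. With weights, the SE was 0.31 for the 36-nt exon and 1.06 for the 460-nt exon, whose inclusion junctions had fewer reads. Srsf10 passed in 8 of 10 alternatives (log2 fold change -0.81 to -0.41), Srsf3 in 3, Srsf1 and Srsf2 in 2 each, and the other members in 0.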

Other observations

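The first junction of a gene, nearest its 5′ end, varied between replicates in some members. Srsf1 had 131 and 44 reads on its first junction in KO livers and 34 and 191 in WT livers, which was 23.0% and 6.83% of its known junction reads in KO and 6.42% and 17.7% in WT. KO replicate 1 and WT replicate 2 were high, so the genotypes overlapped. Over 9797 genes with at least 100 known junction reads, the first junction held 16.4% and 13.9% of reads in KO livers and 16.8% and 18.6% in WT livers. Srsf9 had shares of 29.1% and 29.2% in KO and 17.2% and 33.9% in WT, and Srsf11 had shares of 2.12% and 1.32% in KO and 0.663% and 0.743% in WT.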
